A study of Mus musculus with 2 samples.

Results

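The complement genes described here are C1qa, C1qb, C1qc, C4b and C3ar1, measured in single cells of the hippocampus of a mouse model of Fabry disease. They are the 5 of 7 chosen genes (C1qa, C1qb, C1qc, C3, C4b, C3ar1 and Serping1) that the gene lists of both libraries hold, out of 12744 genes listed in both. The genes were chosen by name, as complement components and regulators, and no measured level entered the rule. The choice was made with earlier results of these data known, and listing in both libraries was required. C3 was not analysed here, and Serping1, listed for the wt library alone, has no ratio.

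The series holds 1 GlaKO library and 1 wt library from animals 57 weeks old, and its title concerns anxiety-like behaviour and hippocampal activity. GlaKO mice lack a working Gla, the gene of the lysosomal enzyme alpha-galactosidase A that is deficient in Fabry disease, and the wt mice were their littermates. Mice of both genotypes received xylazine and ketamine and were perfused with PBS, and their hippocampi were dissociated enzymatically, cleared of debris on a gradient and sorted with 7-AAD, a dye that enters dead cells. For each library 10000 cells were loaded for 3' sequencing with unique molecular identifiers (UMIs), and the number of animals per library is not given in the sources used here.

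Complement is a cascade of plasma and tissue proteins that tags targets for removal. In its classical branch the recognition molecule C1q, built from the C1qa, C1qb and C1qc chains, binds a target, C4 and C3 are then cleaved and deposited, and the fragment C3a signals through the receptor C3ar1. In mouse brain, C1q is known to be made chiefly by microglia and related macrophages, and it is known for marking synapses, while Serping1 encodes the inhibitor of the C1 proteases.

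The 3 C1q genes lie side by side on the minus strand of chromosome 4 (GRCm38, GENCODE M21), within 18675 bases. C1qb (ENSMUSG00000036905.8) spans chr4:136880129-136886187, C1qc (ENSMUSG00000036896.5) spans chr4:136889804-136893065, and C1qa (ENSMUSG00000036887.5) spans chr4:136895917-136898803. C3ar1 (ENSMUSG00000040552.8) lies at chr6:122847138-122856161 and C4b (ENSMUSG00000073418.4) at chr17:34728380-34743882, both also on the minus strand. None of the 5 genes is overlapped by another gene of this annotation. C4b and its neighbour C4a share 97.6% of the last 500 bases of their transcripts (489 of 501 aligned positions), so reads of the pair can be split or lost in counting and C4b counts are uncertain. The 250 bases before the start site are shown for C1qb, C1qc and C3ar1, whose source class was microglia. C1qa had the same source class but was not matched in the sequences used. The start sites are those of RefSeq and differ from those of GENCODE: of the C1qc window 151 bases, and of the C3ar1 window 4, lie inside the GENCODE gene. The sequences were taken from RefSeq (GRCm38.p6, minus strand, 5' to 3'), and 3 of the 5 genes matched that table. Capitals mark GAGGAA or its reverse complement TTCCTC, the core bound by PU.1, a transcription factor of the myeloid lineage, searched on both strands with no overlap.
C1qb, chr4:136886201-136886450: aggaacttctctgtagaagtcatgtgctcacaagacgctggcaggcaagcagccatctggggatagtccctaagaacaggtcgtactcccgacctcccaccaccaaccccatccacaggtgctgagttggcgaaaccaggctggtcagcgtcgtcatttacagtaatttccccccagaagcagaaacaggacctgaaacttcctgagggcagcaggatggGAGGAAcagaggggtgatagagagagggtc
C1qc, chr4:136892915-136893164: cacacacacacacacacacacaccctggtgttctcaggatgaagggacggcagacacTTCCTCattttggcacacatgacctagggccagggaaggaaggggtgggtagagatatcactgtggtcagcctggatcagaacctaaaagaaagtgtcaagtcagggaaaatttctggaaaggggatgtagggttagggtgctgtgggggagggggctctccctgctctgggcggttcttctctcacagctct
C3ar1, chr6:122856158-122856407: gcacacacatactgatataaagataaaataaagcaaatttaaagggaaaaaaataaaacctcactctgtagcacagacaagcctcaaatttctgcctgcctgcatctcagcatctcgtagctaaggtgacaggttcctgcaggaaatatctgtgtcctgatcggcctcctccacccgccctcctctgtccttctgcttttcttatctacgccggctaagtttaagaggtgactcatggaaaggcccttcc
C1qb held 1 such match, beginning at position -30 from the start site, and C1qc held 1 at position -193. C3ar1 held 0 matches in this window. Of 32851 windows of the same length over all genes, 23.3% held the letters, so a match is common and is given as a description of the sequence only.

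Depth was 29914106 UMIs over 4572 barcodes (median 6101) in the GlaKO library and 31929688 UMIs over 5443 barcodes (median 5054) in the wt library, and 6 barcodes occurred in both. Clusters were made without complement genes and named from marker lists. Choroid plexus epithelium made up 17.9% of GlaKO cells and 48.4% of wt cells, and neurons 9.46% and 7.18%, under a label of hippocampus for both libraries. Levels are given in CPM, the UMIs of a gene scaled to 1000000 UMIs of the cell class. Transcripts are tagged near the 3' end, so levels are not scaled by transcript length. Capture and mapping can differ between genes, so levels of different genes compare only roughly, and C4b counts are uncertain as stated above. Every interval is a 95% interval that covers counting error only. With 1 library per genotype there is no replicate check and no test, and a difference past 1.5-fold is named as such beside the percent of all measured genes that passed it.

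C1q transcripts were concentrated in microglia and stood at nearly the same level there in both libraries. Of all UMIs of the 3 chains, 91.9% of those in the GlaKO library and 88.7% of those in the wt library lay in microglia, and 5.25% and 6.90% in border macrophages. C1qa stood at 7914 CPM in GlaKO microglia and 8232 CPM in wt microglia. C1qb stood at 7326 CPM in GlaKO microglia, against 7753 CPM in wt microglia. C1qc, the lowest of the chains, stood at 5892 CPM in GlaKO microglia and 6078 CPM in wt microglia. The chains together made 2.11% of all UMIs of 704 GlaKO microglia and 2.21% of those of 430 wt microglia. By level among all listed genes, C1qa ranked at place 4 in GlaKO microglia and 3 in wt microglia, C1qb at 6 and 4, and C1qc at 10 in both.

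**Figure D1:**
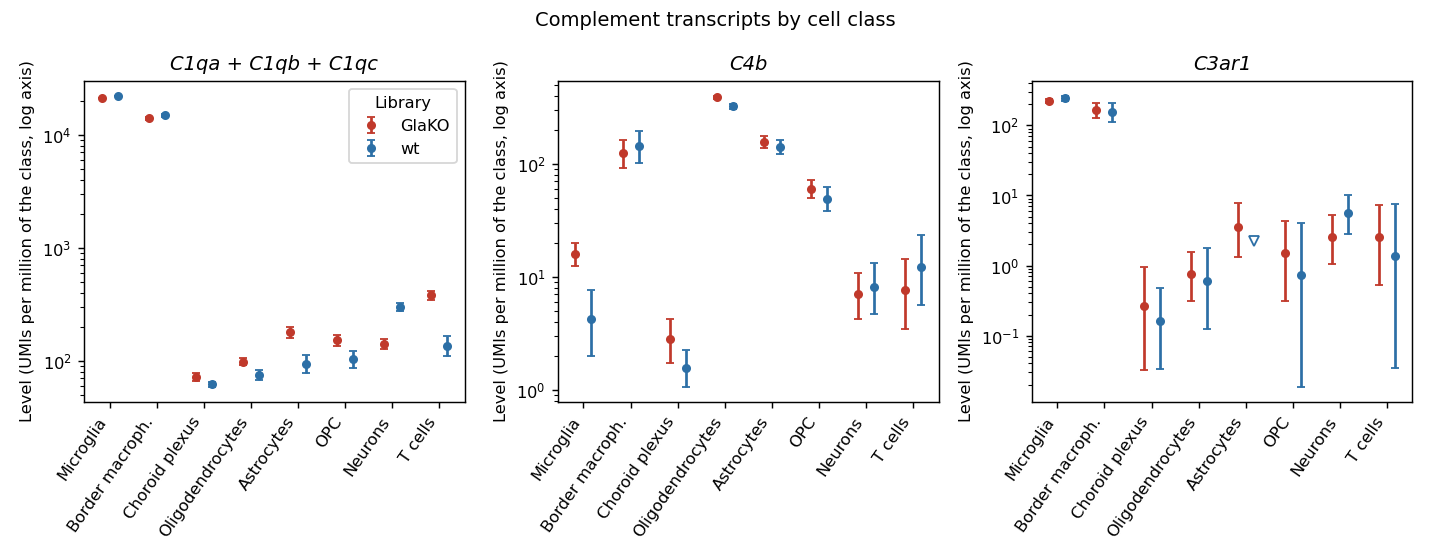
Level of the summed C1q chains, of C4b and of C3ar1 in each cell class (CPM of the class, log axes), GlaKO in red left of wt in blue; points are summed levels of 1 library, bars are exact Poisson 95% intervals, and the open triangle is the level of 3 UMIs where none was counted. C1q is highest in microglia (21132 CPM in GlaKO, 22062 CPM in wt) and then border macrophages, C4b is highest in oligodendrocytes, and C3ar1 is highest in microglia and border macrophages.

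None of the 3 chains differed past 1.5-fold in microglia, where 3.75% of 7118 measured genes did. The log2 ratio of GlaKO over wt was -0.06 (interval -0.08 to -0.03) for C1qa, -0.08 (-0.11 to -0.06) for C1qb and -0.04 (-0.07 to -0.02) for C1qc. Summed, it was -0.06 (-0.08 to -0.05), beside a median of -0.03 over all measured genes, and 42.9% of those genes had a lower ratio. The C1q chains thus lay close to the middle of all genes measured in microglia.

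All 704 GlaKO and all 430 wt microglia held UMIs of each of the 3 chains. The summed C1q level per cell had a lowest value of 6246, a median of 20894 and a highest value of 62771 CPM in GlaKO microglia. In wt microglia the lowest value was 3365, the median 21662 and the highest 57631 CPM, so the ranges of the libraries overlapped. Microglia formed 2 clusters that differed more from each other than the libraries did. Cluster 18, with a median of 2072 UMIs per cell in GlaKO and 1890 in wt, stood at 31045 CPM of C1q in 113 GlaKO cells and 31841 CPM in 70 wt cells. Cluster 8, with 7082 and 5890 UMIs per cell, stood at 20572 CPM in 591 GlaKO cells and 21409 CPM in 360 wt cells. The higher C1q level thus went with the lower depth in both libraries; the part of depth in it was not tested.

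**Figure D2:**
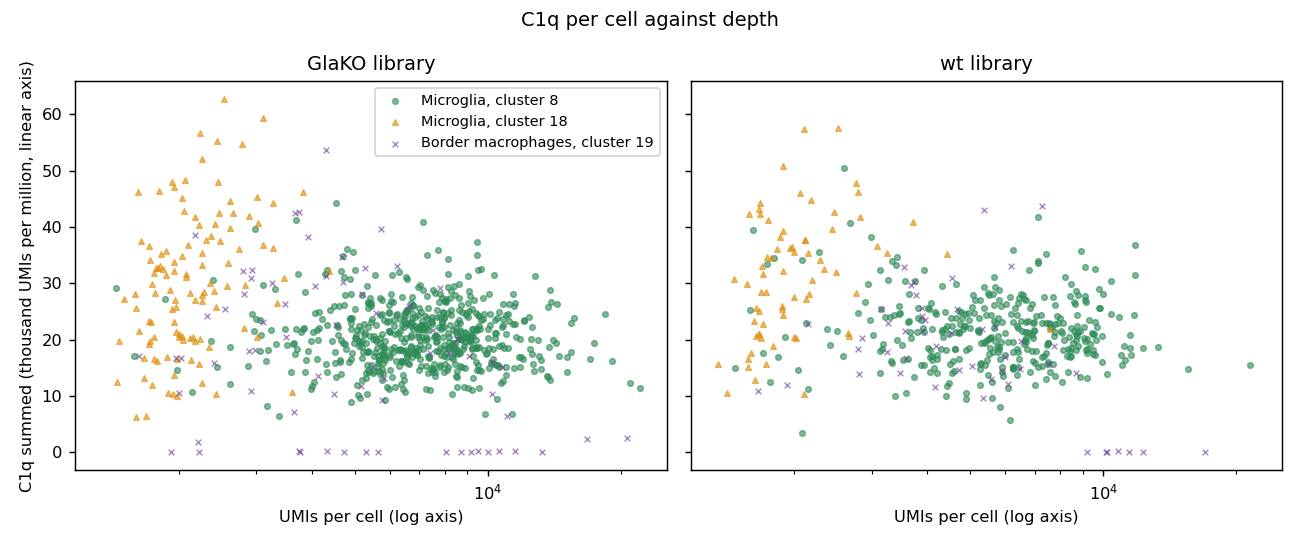
Summed C1q level of each cell (CPM in units of 1000, linear axis) against its UMIs (log axis), GlaKO left and wt right; each symbol is 1 cell of microglia cluster 8, microglia cluster 18 or border macrophages. Cells of cluster 18 lie at low depth and reach high C1q levels, and some border macrophages lie at or near 0 in both libraries (9 of 70 GlaKO and 4 of 49 wt cells without a UMI).

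The cluster named border macrophages held most of the other C1q UMIs, at a lower summed level and with more spread between cells. This class is 1 cluster led by the antigen presentation genes Cd74, H2-Ab1 and H2-Aa, and its name rests on 3 detected markers, none of them among its 10 leading genes. Of its cells, 22 of 70 in GlaKO and 5 of 49 in wt were among the 4% of barcodes with the highest doublet scores. At Leiden resolution 2, 31 of the 70 GlaKO cells and 19 of the 49 wt cells were named microglia. Microglia then held 95.3% of C1q UMIs in GlaKO and 92.2% in wt. Whether the lower level and wider spread belong to 1 cell type was not tested. Summed C1q stood at 14024 CPM in 70 GlaKO cells and 14930 CPM in 49 wt cells, a log2 ratio of -0.09 (-0.15 to -0.03), in a class with too few cells to be compared across all genes. Of these cells, 19 of 70 in GlaKO and 7 of 49 in wt lay below the lowest microglial cell of their library. Of summed C1q UMIs in the macrophages, C1qb made 37.2% (35.9 to 38.5) and C1qa 35.2% (34.0 to 36.5) in GlaKO. In wt they made 38.4% (36.9 to 39.9) and 36.3% (34.9 to 37.8). The intervals of these chains overlap in each library. The median per cell was 6414 CPM for C1qa and 6307 for C1qb in GlaKO, the other way, and 6323 and 6837 in wt, so no order is read in this class. In microglia C1qa led, at 37.5% against 34.7% for C1qb in GlaKO and 37.3% against 35.1% in wt.

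C3ar1, the receptor for C3a, followed C1q in its source classes but at a level far below it. Microglia held 91.6% of its UMIs in GlaKO and 90.3% in wt. Its level was 223 CPM (210 to 237) in GlaKO microglia and 246 CPM (226 to 266) in wt microglia, a log2 ratio of -0.14 (-0.29 to 0.01) that includes equal levels, and 28.6% of measured genes had a lower ratio. A C3ar1 UMI was seen in 60.8% of GlaKO microglia and 57.7% of wt microglia at median depths of 6521 and 5436 UMIs. With every cell thinned to 1000 UMIs these shares were 19.03% in GlaKO and 20.5% in wt. In choroid plexus epithelium the unthinned share was 0.124% in GlaKO and 0.115% in wt, at median depths of 8611 and 5872 UMIs. Border macrophages stood at 165 CPM in GlaKO (66 UMIs) and 154 CPM in wt (42 UMIs), with intervals that overlap each other. No other compared class held more than 7 C3ar1 UMIs in GlaKO or 11 in wt.

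C4b, the cleaved component next to C1q in the cascade, came from another set of cells, mostly oligodendrocytes. Oligodendrocytes held 86.1% of its UMIs in GlaKO and 81.4% in wt, astrocytes 6.44% and 9.49%, and oligodendrocyte precursors 2.92% and 3.45%. Its level was 389 CPM (376 to 402) in GlaKO oligodendrocytes and 322 CPM (307 to 338) in wt oligodendrocytes, from 3541 and 1604 UMIs. That is a log2 ratio of 0.27 (0.19 to 0.36), within 1.5-fold, where 2.89% of 8642 measured genes passed that limit and 89.0% had a lower ratio. A C4b UMI was seen in 51.0% of GlaKO and 48.5% of wt oligodendrocytes, against 2.22% and 1.11% of choroid plexus cells. With every cell thinned to 1000 UMIs the oligodendrocyte shares were 23.0% in GlaKO and 22.7% in wt. The excess in GlaKO oligodendrocytes was thus seen in the summed level, while the thinned shares lay within each other's intervals.

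Astrocytes stood at 157 CPM of C4b (139 to 178) in GlaKO and 142 CPM (122 to 164) in wt, with a log2 ratio of 0.15 (-0.13 to 0.43). Oligodendrocyte precursors stood at 59.7 CPM in GlaKO and 49.1 CPM in wt, with a log2 ratio of 0.28 (-0.16 to 0.73). Border macrophages stood at 125 CPM in GlaKO and 143 CPM in wt, from 50 and 39 UMIs. Among these 4 classes the order of levels was thus oligodendrocytes, then astrocytes and border macrophages, whose intervals overlapped in each library, then precursors, and all 3 ratios of the last groups include equal levels. Ependymal cells, at 69.5 CPM in GlaKO and 72.1 CPM in wt, rested on 7 and 5 UMIs, in a cluster led by the fibroblast marker Dcn. Microglia stood at 15.9 CPM in GlaKO and 4.21 CPM in wt, from 74 and 10 UMIs, too few to be compared. Of those 74 UMIs, 50 lay in 9 GlaKO cells, in which oligodendrocyte markers made 0.597% of UMIs, against 0.101% in the other GlaKO microglia; their part in the C4b count was not tested.

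Within oligodendrocytes, C4b in cluster 3 stood farther from the other clusters than the libraries stood from each other in any cluster. Cluster 3 was highest, at 687 CPM in GlaKO and 578 CPM in wt, and had the lowest depth, with medians of 2571 and 2512 UMIs per cell. Clusters 0, 1 and 2 stood at 334, 416 and 340 CPM in GlaKO and at 296, 369 and 231 CPM in wt. Of these, clusters 0 and 2 were nearly equal in GlaKO, while cluster 2 differed more than that between libraries. All 4 clusters were higher in GlaKO in summed level, with log2 ratios of 0.17, 0.17, 0.56 and 0.25 for clusters 0, 1, 2 and 3, and none passed 1.5-fold. The thinned share of cells with a C4b UMI was 20.8%, 23.9%, 19.3% and 30.5% in GlaKO and 20.8%, 22.5%, 14.7% and 37.1% in wt, in the same order of clusters. In cluster 3 the share and the level run opposite ways, so no order of the libraries is read there, and cluster 2 (0.37 to 0.74) had the highest ratio of the 4.

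**Figure D3:**
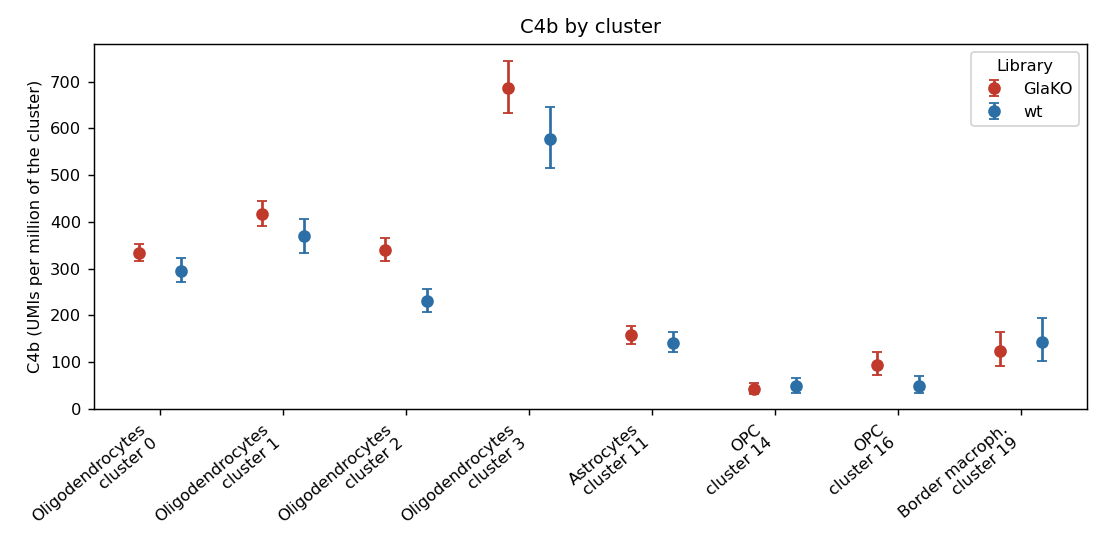
C4b level in each cluster of the classes that held it (CPM of the cluster, linear axis from 0), GlaKO in red left of wt in blue; points are summed levels of 1 library and bars are exact Poisson 95% intervals. Oligodendrocyte cluster 3 is highest in both libraries (687 CPM in GlaKO, 578 CPM in wt), and the gap between libraries is widest in ratio, among oligodendrocytes, in cluster 2.

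Over all cells pooled, the same genes were higher in the GlaKO library. The log2 ratio was 0.97 for C1qa, 0.94 for C1qb, 1.00 for C1qc, 0.92 for C3ar1 and 1.17 for C4b, all past 1.5-fold, where 24.5% of 12742 genes were higher by that much. Microglia held 15.8% of all UMIs in GlaKO and 7.47% in wt, a log2 ratio of 1.08. Oligodendrocytes held 30.9% in GlaKO and 15.6% in wt, a log2 ratio of 0.98. In pooled cells a change in the share of a class and a change in RNA per cell cannot be told apart. Within microglia the ratios of C1q and C3ar1, and within oligodendrocytes that of C4b, were within 1.5-fold.

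C1q UMIs outside microglia and border macrophages gauge free RNA and barcodes that hold more than 1 cell. They numbered 2993 in GlaKO, at 123 CPM, and 2591 in wt, at 88.8 CPM. That was 0.580% (0.560 to 0.601) of the microglial level in GlaKO and 0.403% (0.387 to 0.418) in wt. The pooled percents carry the mix of classes: choroid plexus epithelium, the lowest compared class, was 17.9% of GlaKO and 48.4% of wt cells. The part of this mix in the gap was not tested. The wt value and the gap depend on where border macrophages are placed: the percents were 0.580% in GlaKO and 0.708% in wt, the other direction, with each library clustered alone, and 0.605% and 0.602% with 4% of barcodes removed as doublets. In those clusterings some border macrophages were counted outside, and without the cells of that cluster the percents were 0.580% in GlaKO and 0.403% in wt, and 0.493% and 0.305%. Any C1q level of another class near these values is thus at the level of this gauge. For 10 microglial markers the same percent had a median of 0.555% in GlaKO and 0.344% in wt, and the marker farthest from it was Sall1, a transcription factor, at 6.33% in GlaKO and 3.41% in wt. The chains outside were in the proportions 35.6% C1qa, 36.6% C1qb and 27.8% C1qc in GlaKO and 37.2%, 37.8% and 24.97% in wt.

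By class, summed C1q was 0.340% of the microglial level in choroid plexus epithelium in GlaKO and 0.280% in wt, the lowest of the compared classes. T cells stood at 1.79% in GlaKO, the highest class there, and at 0.618% in wt. Neurons stood at 0.664% in GlaKO and at 1.35% in wt, the highest class there. A C1q UMI was seen in 35.7% of GlaKO and 23.9% of wt choroid plexus cells, and in 8.65% and 6.07% after thinning to 1000 UMIs. Low C1q counts were thus spread over all compared classes, with a higher value in GlaKO in each of them except neurons.

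Of the 24 pairs of gene and class with at least 100 UMIs, 10 differed past 1.5-fold, and each of these was a C1q chain outside microglia. Of all measured genes, 7.9% passed that limit in T cells, 3.94% in neurons, 3.47% in astrocytes, 3.44% in oligodendrocyte precursors and 2.89% in oligodendrocytes. The 7 pairs higher in GlaKO were all 3 chains in T cells (6.19% of genes were higher by that much there), C1qa and C1qb in astrocytes (2.37%), and C1qc in oligodendrocytes (1.69%) and in oligodendrocyte precursors (2.16%). The 3 lower pairs were the chains in neurons, where 1.58% of genes were lower by 1.5-fold, with log2 ratios of -1.01, -1.07 and -1.21 for C1qa, C1qb and C1qc. The widest ratio was that of C1qc in T cells, at 2.43 (1.70 to 3.24), from 147 UMIs in GlaKO and 17 in wt.

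**Figure D4:**
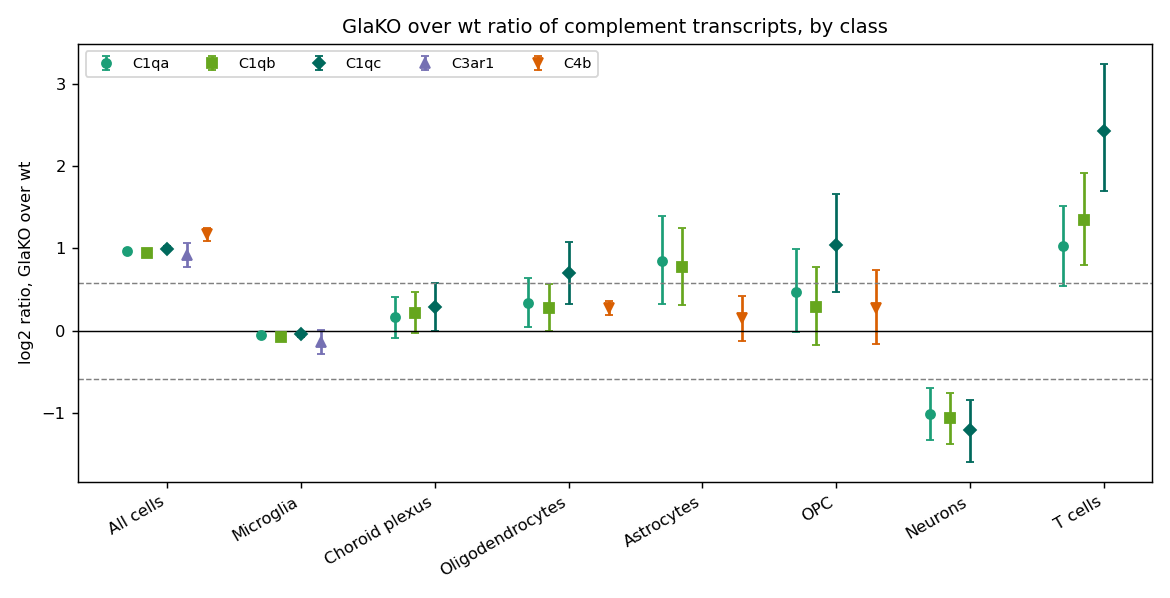
Log2 ratio of GlaKO over wt for each complement gene with at least 100 UMIs in a class, with exact conditional 95% intervals for counting error; dashed lines mark 1.5-fold in each direction and the solid line equal levels. The C1q chains lie near 0 in microglia, at about 1 in all cells pooled, above 0 in T cells and below 0 in neurons.

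In neurons and T cells these ratios rested on few cells. In wt neurons 8 cells held 449 of 580 C1q UMIs, and 1 of them held 191. In GlaKO T cells 8 cells held 354 of 447 C1q UMIs, and 1 of them held 104. Over all cells outside, the 81 GlaKO and 61 wt cells with 5 or more C1q UMIs held 40.6% and 42.9% of these UMIs, and 71 and 53 of them also held 2 or more UMIs of microglial markers. Without all cells that held 2 or more such marker UMIs, the summed C1q log2 ratio was 0.19 (-0.16 to 0.54) in neurons, beside -1.09 with them, and 0.62 (0.02 to 1.24) in T cells, beside 1.47 with them. In the other classes it was 0.22 in choroid plexus epithelium, 0.48 in oligodendrocytes, 0.81 in astrocytes and 0.47 in precursors. Over all cells outside it was then 0.55 (0.44 to 0.66), at 0.345% of the microglial level in GlaKO and 0.226% in wt. This pooled ratio lay above those of choroid plexus epithelium, oligodendrocytes, precursors and neurons, and it carries the mix of classes, whose part was not tested. The cut left out 17.9% of GlaKO and 10.9% of wt cells outside. The marker Sall1 alone stood at 14.7% of the microglial level in GlaKO astrocytes and 13.1% in wt astrocytes. How many of the cells left out were mixed barcodes was not tested. Without the marker-holding cells the C1q level outside was thus still higher in GlaKO. That library also had a larger share of microglia and a smaller share of choroid plexus epithelium. In neurons the sign was not kept.

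**Figure D5:**
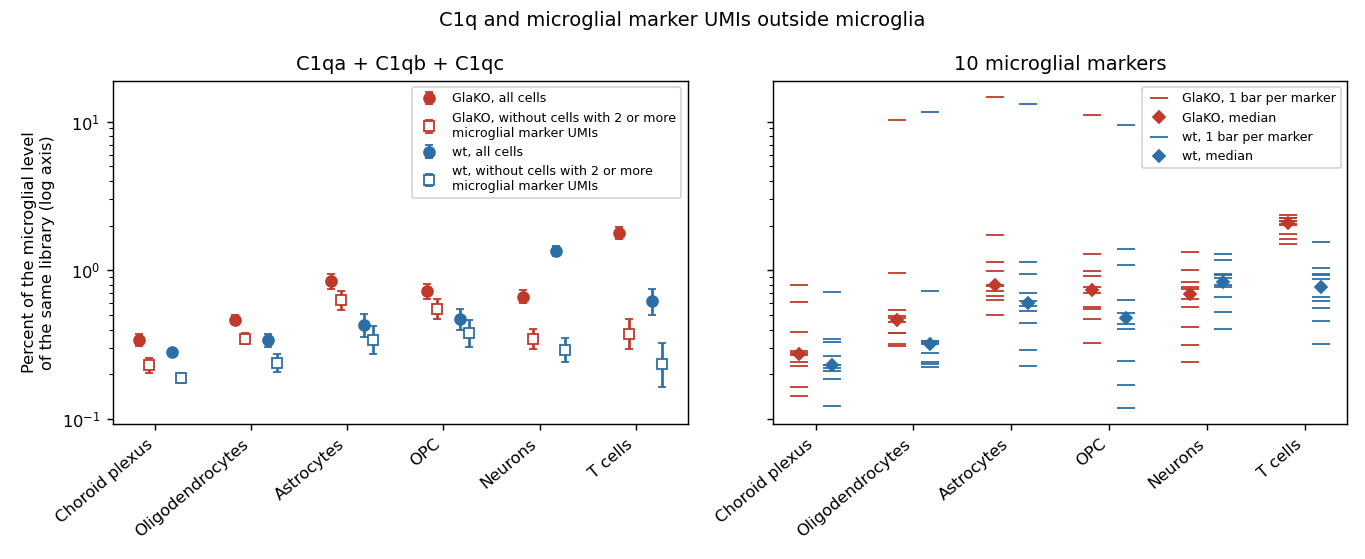
Left, summed C1q level of each class as percent of the microglial level of the same library (log axis), GlaKO in red left of wt in blue, with all cells (filled) and without cells holding 2 or more microglial marker UMIs (open), with exact Poisson 95% intervals; right, the same percent for each of 10 microglial markers (bars) and their median (diamonds). T cells of GlaKO and neurons of wt stand highest with all cells for C1q and fall among the other classes without the marker-holding cells.

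Serping1, the C1 inhibitor, was listed for the wt library alone, so it has no GlaKO value here, and had 134 UMIs there. Choroid plexus epithelium held 107 of them, at 5.83 CPM, or a UMI in 3.82% of its cells. Ependymal cells held 17, all in 2 of 13 cells, and neurons held 6. The ependymal cluster was led by Dcn, a fibroblast marker, beside the ependymal markers Tmem212, Rarres2 and Ccdc153, so the type of those 2 cells is uncertain. Microglia and border macrophages of the wt library held 0, which for microglia allows up to 1.26 CPM by the limit of 3 counts.

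Of 55 other complement genes listed by role, 24 were in both gene lists and 21 had at least 100 UMIs in their highest class among the 7 compared classes. In that class 0 were higher in GlaKO by 1.5-fold, 1 was lower and 20 lay within it, with a median log2 ratio of 0.03. Of all measured genes in these classes, from 2.89% (oligodendrocytes) to 7.66% (choroid plexus epithelium) passed 1.5-fold in either direction. No result about the complement genes is read from the count. The 5 measured receptors had a median log2 ratio of 0.11. C5ar1, the receptor for C5a, had 0.14 (-0.06 to 0.33) in microglia, and C5ar2, the second C5a receptor, 0.50 (0.19 to 0.83), at 67.5 CPM in GlaKO and 47.5 CPM in wt. Itgam and Itgb2, the chains of complement receptor 3, had 0.11 (0.02 to 0.20) and 0.11 (-0.04 to 0.27) in microglia, and Lrp1, a scavenger receptor, 0.03 (-0.06 to 0.11) in precursors. Of the upstream genes, Masp1, a protease of the lectin branch, had 0.16 in precursors. Colec12, a collectin, and Cfp, properdin of the alternative branch, were listed in both libraries but had too few UMIs to be compared.

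The regulators were the largest group, with 15 measured, 10 of them below 0 and 5 above, and a median log2 ratio of -0.09. Over all measured genes, the medians of their classes ran from -0.03 (microglia) to 0.06 (choroid plexus epithelium), and no direction of the group is read. Clu, which encodes clusterin, an inhibitor of the terminal complex, had a log2 ratio of 0.15 in astrocytes. Sez6l2, a neural membrane protein with complement control domains, had 0.20 in oligodendrocytes, and Cd59a, which blocks the terminal pore, 0.07 in choroid plexus epithelium. The gene past 1.5-fold in its compared class was Vtn, which encodes vitronectin, in choroid plexus epithelium. It stood at 22.1 CPM in GlaKO and 63.6 CPM in wt, a log2 ratio of -1.53 (-1.77 to -1.29). In that class 7.66% of measured genes passed 1.5-fold in either direction. Pericytes, a class of 13 GlaKO and 31 wt cells, were not compared but held 74.8% of Vtn UMIs in GlaKO and 67.4% in wt, at 27793 and 37746 CPM. The 3 pericyte markers Rgs5, Kcnj8 and Pdgfrb, summed, stood at 1.47 CPM in GlaKO and 4.85 CPM in wt choroid plexus epithelium with none at 0, and their part in the Vtn ratio was not tested.

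Among 10483 genes outside the complement lists, those whose log2(CPM + 1) followed each gene most closely over 14 points (7 classes in 2 libraries) were taken as most alike. C1qa was closest to Fcrls (r = 0.997), Csf1r and Ly86, C1qb to Fcrls (0.995), Fcgr2b and Ly86, and C1qc to Csf1r (0.990), Ly86 and Fcrls. Csf1r encodes the receptor for the growth factor of macrophages, and it and Fcrls are among the markers that named microglia. C3ar1 was closest to Fcgr2b (0.986), an inhibitory Fc receptor, and then to Csf1r and Stab1. C4b stood apart from the other 4, with r between -0.30 and -0.26 to them, and was closest to Llgl1 (0.983), Rab33b and Psat1, an enzyme of serine synthesis. The points share 2 libraries and their free RNA, so r is a description of where the transcripts lie.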

How the data were processed

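The data are single-cell 3' counts of 1 GlaKO and 1 wt library. The deposited values are raw counts of UMIs per gene and barcode made by the authors. Cell Ranger 6.0.1, Seurat 4, R 4.1.3 and build mm10 are named in the submitters' processing notes; annotation and filters were not given in the sources used here. Depth was 29914106 UMIs (GlaKO) and 31929688 UMIs (wt).

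Barcodes under 500 genes or over 20% mitochondrial UMIs would have been removed, and none was. Scrublet in scanpy 1.11.5 marked 59 GlaKO (1.29%) and 26 wt (0.478%) doublets, which were removed, leaving 4513 and 5417 cells. So small a share in wt does not show that the caller worked there, so removing the 4% of barcodes with the top scores was an alternative. Both libraries were clustered together without complement genes (2000 variable genes, 30 components, 15 neighbours, Leiden resolution 1). A cluster was named if at least 3 markers were seen in at least 10% of its cells, at a mean log2 fold of at least 1 over the median cluster, and its 10 leading genes did not favour another type; names mean "-like". Classes with at least 100 cells in each library were compared.

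For each class of a library, UMIs of a gene were added up and scaled to the class total. Levels have exact Poisson intervals, ratios exact conditional intervals and shares of cells Clopper-Pearson intervals, all for counting error only; UMIs of few cells have wider true error. No p-value was computed. Genes needed 100 UMIs over both libraries. The ratio step was tested on simulated independent counts only, which do not cover UMIs gathered in few cells. Named were all 7 genes and, from the list of other complement genes, those past 1.5-fold and the 3 with most UMIs of a role, plus the C5a receptors, chosen after their values were seen. The genes and lists were chosen with earlier results of these data known. Alternatives were TMM scaling (edgeR 4.0.16), thinning to 1000 UMIs, other doublet limits, other resolutions, complement genes in clustering, libraries clustered alone, the top cell left out, matched depth, removal of cells with microglial marker UMIs, and, chosen after seeing the data, removal of border macrophages from 2 of these.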

Additional observations from a re-analysis of the deposited data

Results flagged for a closer look

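The summed C1q ratio of GlaKO over wt ran in opposite directions in different cell classes. It was above 0 in choroid plexus epithelium (log2 ratio 0.22), oligodendrocytes (0.40), astrocytes (0.93), oligodendrocyte precursors (0.56) and T cells (1.47), and below 0 in microglia (-0.062) and neurons (-1.09). The difference between classes was not tested, since each ratio sets 1 library against 1 library. Without cells holding 2 or more microglial marker UMIs the ratio in neurons was 0.19 and that in T cells 0.62.

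Serping1 had 134 UMIs in the wt library, in a row that no comparison used.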

How the results depend on the processing

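The summed C1q ratio in microglia stayed between -0.07 and -0.03 over 9 alternatives, C3ar1 between -0.14 and -0.06, and C4b in oligodendrocytes between 0.26 and 0.34, and none of these ratios changed direction. The C1q ratio in microglia was -0.035 with TMM scaling and -0.031 with cells matched over 5 parts of depth. C1q outside microglia, as percent of microglia, was 0.782 in GlaKO and 0.483 in wt with thinned cells, 0.605 and 0.602 with 4% of barcodes removed as doublets, 0.345 and 0.226 without cells holding microglial marker UMIs, and 0.708 in wt clustered alone. At resolution 2 a border macrophage class was named, but 31 GlaKO cells and 19 wt cells of the main class fell to microglia. With 4% removed, and in wt alone, no border macrophage class was named. With 4% removed, 29 of its GlaKO cells and 16 of its wt cells fell to microglia, 19 and 28 to other classes, and 22 and 5 were themselves removed; in wt alone 19 fell to microglia and 30 to other classes. Clustered alone, the gap between libraries changed direction. Without these cells, alternatives chosen after seeing the data, the percents were 0.493 in GlaKO and 0.305 in wt (4% removed), and 0.580 and 0.403 (clustered alone). The percent of C1q UMIs in microglia was 89.5 in GlaKO and 87.6 in wt (thinned), 97.0 and 93.4 (4% removed), 95.3 and 92.2 (resolution 2), 93.3 and 90.8 (without marker-holding cells), and 92.2 in wt alone. The percent of C4b UMIs in oligodendrocytes was 79.0 in GlaKO and 71.5 in wt (thinned), and in GlaKO 87.4 (4% removed) and 84.5 (without marker-holding cells). Beyond class membership the cause was not tested. With a minimum of 20 UMIs, 13 of 28 pairs of gene and class passed 1.5-fold, against 10 of 24. No paired analysis was possible because each genotype has 1 library, and none could be left out for the same reason. C4b in microglia and C3ar1 outside myeloid cells were limited by depth.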

Other observations

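A small unnamed cluster of mixed leading genes held C1q at 17.4% of the microglial level in 16 GlaKO cells and 19.1% in 11 wt cells, with the 3 chains in the proportions 36.4%, 34.6% and 29.0% (C1qa, C1qb, C1qc) in GlaKO and 34.4%, 32.3% and 33.3% in wt. A choroid plexus cluster of 16 cells, all from the wt library, held summed C1q at 1849 CPM (1516 to 2235), from 107 UMIs, against 61.9 CPM in all wt choroid plexus cells.

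C4b in oligodendrocyte precursors is given by cluster. The cluster with median depths of 2227 UMIs in GlaKO and 2135 in wt stood at 94.8 CPM in GlaKO and 49.3 CPM in wt, from 64 and 29 UMIs. The deeper cluster stood at 41.9 CPM in GlaKO and 49.0 CPM in wt, from 56 and 39 UMIs. Both sums fell below the minimum of 100 UMIs and were not compared.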
